A study of Mus musculus with 288 samples.

Results

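The comparison concerns livers of 6-month-old C57BL/6J male mice that received the same reduced daily ration during the day, either as a single meal (CR-day-2h) or spread over the day (CR-day-12h). It rests on 48 libraries of bulk liver mRNA of the 288 in the series, chosen by their feeding and age labels: 24 CR-day-2h libraries and 24 CR-day-12h libraries. CR-day-2h mice were given their allotment at the start of the day and ate it in under 2 h, so that they fasted for the rest of the cycle. CR-day-12h mice received single pellets at regular intervals through the 12 h of day and fasted through the night. Both groups carried a 30% caloric restriction, were wild type, lived alone in cages with a running wheel, and differ in the labels by how the food was spread. Libraries of 24 ad libitum (AL) mice of the same age are given as background. Further comparisons use calorie-restricted mice fed at night at 6 months (CR-night-2h and CR-night-12h). They also use CR-day-2h and CR-day-12h mice at 19 months, and each of these 4 groups has 24 libraries. Livers were collected every 4 h from hours 0 to 44, with 2 mice (A and B) of each group at each time point, and each mouse was sampled once. On lighting at collection the sources differ, with light and dark phases in the labels but constant darkness in the study's methods and table headings, and hour 0 is not tied to lights or to the meal in the sources used here. Time is therefore given as clock hour, the sampling hour folded to 24 h, with 4 mice of each group at each of 6 clock hours.

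The liver clock is a loop of transcription factors. Arntl (BMAL1) with CLOCK or NPAS2 drives the Per, Cry, Nr1d1 and Dbp genes, whose PER, CRY and REV-ERB products repress the loop in turn. Meal time is a strong signal to the clock of the liver, where feeding and fasting also switch lipid synthesis, fat oxidation and glycogen metabolism. Heat-shock factor 1 drives chaperone genes such as Hspb1, Hsph1 and Hsp90aa1 and follows daily changes in body temperature.

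Short stretches upstream of some clock and chaperone genes are shown because the results below concern these classes of genes. Per1 and Tef are examples of the E-box, and no values of their own are given below. They come from RefSeq on the mouse build GRCm38.p6, run 5′ to 3′ on the gene's strand, and lie within 250 bases before the annotated start. Hspa1b, Hsph1, Cry1, Bhlhe41 and Nfil3 are on the minus strand and the others on the plus strand. Capitals mark 2 facing units of a heat-shock element (GAANNTTC or TTCNNGAA) in the chaperone genes, the E-box CACGTG bound by clock activators in Cry1, Per1, Bhlhe41 and Tef, and the reverse complement of TAGGTCA, bound by REV-ERB factors, in Nfil3.
Hspb1 (chr5:135887801-135887830): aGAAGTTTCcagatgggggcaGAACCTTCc
Hspa1b (chr17:34959324-34959353): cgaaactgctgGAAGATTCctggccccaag
Hsph1 (chr5:149636351-149636380): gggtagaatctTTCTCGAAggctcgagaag
Hspe1 (chr1:55088053-55088082): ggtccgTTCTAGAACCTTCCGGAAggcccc
Dnaja1 (chr4:40722333-40722362): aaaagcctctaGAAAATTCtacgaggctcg
Cry1 (chr10:85185097-85185126): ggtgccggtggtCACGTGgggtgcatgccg
Per1 (chr11:69098771-69098800): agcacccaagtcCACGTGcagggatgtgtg
Bhlhe41 (chr6:145865556-145865585): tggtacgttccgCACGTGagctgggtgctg
Tef (chr15:81802534-81802563): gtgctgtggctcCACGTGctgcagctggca
Nfil3 (chr13:52981040-52981069): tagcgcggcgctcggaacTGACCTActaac
Facing heat-shock element units occurred on either strand in 6 of the 12 chaperone genes matched to the table and in 14.5% of all genes in it. CACGTG occurred in 6 of 23 matched clock genes and in 6.86% of all genes, and TAGGTCA in 2 of 23 and in 2.55%. These matches describe letters in a window, not binding.

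Library totals ranged from 3170660 to 8969840 counts in CR-day-2h (median 4866470) and from 3996110 to 7116060 counts in CR-day-12h (median 5784870). Of 21869 genes in the tables, 11570 had counts high enough to test. In all, 3 libraries stood apart, namely replicate A at hour 20 of CR-day-2h (20A) and replicates B at hours 40 and 24 of CR-day-12h (40B and 24B). Library 20A and library 40B had 46.8 and 19.8 CPM (counts scaled to library size) of the proliferation gene Mki67, against at most 1.93 CPM in the other mice of their group and clock hour, and very little Elovl3 and Serpina12. Library 24B resembled another phase of the day, with Dbp at 135 CPM against 4.87 to 30.3 CPM and the lipogenic gene Fasn at 4454 CPM against 369 to 426 CPM in the other CR-day-12h mice of clock hour 0. Results that rest on these libraries are given with and without them, and the genes named here were picked after their values were seen. The 12 hepatocyte markers summed to a median of 138274 CPM in CR-day-2h and 137903 CPM in CR-day-12h, so the tissue label held in both groups.

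The first question was when in the day the groups differed. A gene was called at a clock hour where its edgeR quasi-likelihood test gave a Benjamini-Hochberg adjusted p under 0.05 over all genes and a change of at least 1.5-fold. Most calls fell at clock hour 4, where 230 genes were higher and 190 lower in CR-day-2h, or 1.99% and 1.64% of the genes tested (3.63% together). At clock hour 0 the counts were 15 higher and 16 lower (0.268% together), at hour 8 they were 19 and 15 (0.294%), and at hour 20 they were 18 and 5 (0.199%, of which 0.156% higher and 0.0432% lower). The fewest fell at hour 12, with 1 higher (0.00864%) and 3 lower (0.0259%, together 0.0346%), and at hour 16, with 3 higher (0.0259%) and 6 lower (0.0519%, together 0.0778%). In all, 499 genes (4.31%) were called at 1 or more clock hours. The median difference over all genes was between -0.01 and 0.00 on the log2 scale at each clock hour. Without libraries 20A, 40B and 24B the calls at clock hour 4 numbered 319 higher and 243 lower, and those at clock hour 20 were 2 higher and 0 lower (edgeR).

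**Figure D1:**
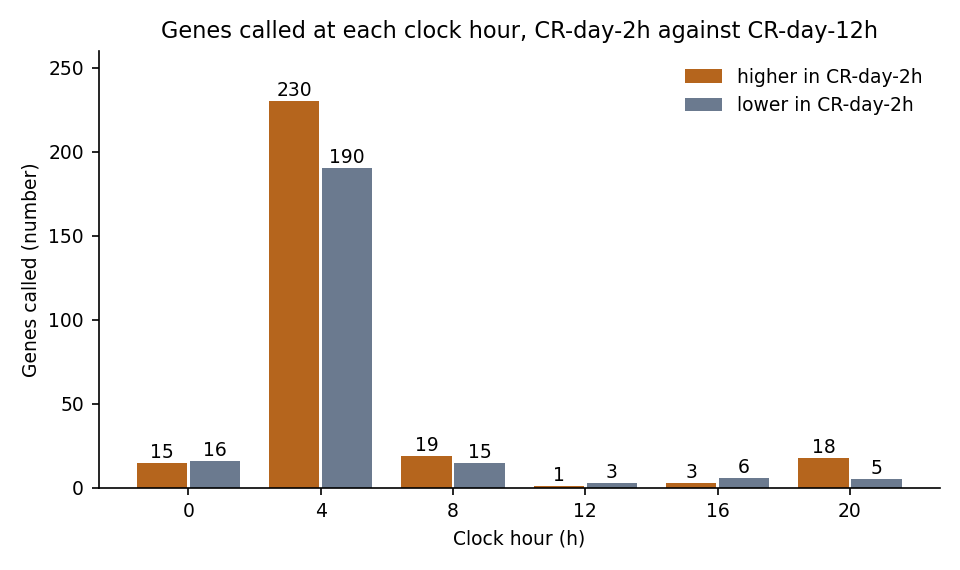
Number of genes called higher and lower in CR-day-2h against CR-day-12h at each clock hour, from 4 mice against 4 mice. The bars at clock hour 4 reach 230 and 190 genes, and no bar at another hour passes 19.

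All 230 genes called higher at clock hour 4 were higher in CR-day-2h among A mice and among B mice taken separately, with median log2 differences of 1.11 in A and 0.79 in B. All 190 genes called lower were lower in both, with medians of -0.84 and -0.68. Both sets were called on A and B mice together, so this agreement in sign was largely set by the selection. Tested on 1 letter alone, with 2 mice against 2 mice, A mice gave 111 higher and 99 lower calls at this hour and B mice gave 1 and 0, with 822 genes at an unadjusted p under 0.05 in B mice. The biological coefficient of variation, taken from the median dispersion over genes, was 0.160 in A mice and 0.187 in B mice.

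Clock genes were called in both directions at clock hour 4. Arntl, the core activator, had 18.1, 18.6, 22.8 and 9.71 CPM in CR-day-2h, against 3.75, 0.813, 1.45 and 2.38 CPM in CR-day-12h. All CR-day-2h mice lay above all CR-day-12h mice, for a log2 difference of 3.13 ± 0.52 (SE, edgeR adjusted p = 0.000209). In AL mice, which eat mostly at night, Arntl averaged 21.1 CPM at this hour. Npas2, which can replace CLOCK as the partner of BMAL1, had 8.11, 3.39, 6.07 and 1.62 CPM in CR-day-2h, against 1.41, 0.542, 0.415 and 0.17 CPM in CR-day-12h. Its log2 difference was 3.02 ± 0.95 (SE, edgeR adjusted p = 0.0481). Nfil3, a repressor of D-box genes, had 20.8, 21.8, 23.6 and 8.63 CPM in CR-day-2h, against 4.22, 7.18, 3.94 and 2.89 CPM in CR-day-12h (log2 difference 2.01 ± 0.37, SE). For each of these 3 genes every CR-day-2h mouse was above every CR-day-12h mouse. Genes called at a clock hour were selected on these same values, so a lack of overlap here and below is a description. The share of all genes without overlap was not counted.

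Other clock genes were called lower at clock hour 4, among them 2 of 14 repressors, with 0 repressors called higher (all genes 1.64% and 1.99%). Bhlhe41 (DEC2), a repressor, was at 0.338, 0.357, 0.217 and 0 CPM in CR-day-2h, against 3.52, 2.71, 4.15 and 4.42 CPM in CR-day-12h (log2 difference -3.76 ± 1.0, SE). Ciart (CHRONO), another repressor, was at 6.25, 5.00, 6.72 and 8.09 CPM in CR-day-2h, against 26.5, 24.5, 28.8 and 31.4 CPM in CR-day-12h (-2.11 ± 0.66). The ubiquitin protease gene Usp2 was at 19.1, 18.7, 9.97 and 39.6 CPM in CR-day-2h, against 74.1, 88.3, 78.4 and 134 CPM in CR-day-12h (-2.12 ± 0.54). The groups did not overlap for any of these genes. Dbp, the PAR-domain output factor, had 30.6, 49.6, 44 and 74.7 CPM in CR-day-2h, against 144, 145, 130 and 137 CPM in CR-day-12h. The Dbp ranges did not overlap either, but the difference of -1.49 ± 0.59 missed the threshold (edgeR adjusted p = 0.123). The repressor genes Cry1 (0.77) and Nr1d1 (0.22) had positive differences at this hour, and neither was called.

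Of the 29 genes of the activator, repressor and output lists, 4 were called higher and 5 lower at clock hour 4 (all genes 1.99% and 1.64%), and 12 had a different daily profile by an F test of whether the difference depended on the clock hour (all genes 1.12%, or 130 genes). The count of 130 was 202 without library 24B and 277 without all 3 libraries. The other members called higher or lower at this hour were Leo1 (log2 difference 1.04), Hlf (-0.72) and Nampt (-0.71). Without the 3 libraries that stood apart, 5 clock genes were called higher and 10 lower at clock hour 4, and 6 were called higher at clock hour 0. Over all genes the counts under that setting were 319 higher and 243 lower at clock hour 4, and 45 higher at clock hour 0, against 15 with all libraries.

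Clock hour 16 showed a second set of clock differences. Nr1d1 (REV-ERBα), a repressor of Arntl, had 48.4, 90.7, 37.4 and 132 CPM in CR-day-2h, against 8.52, 15.3, 4.34 and 6.54 CPM in CR-day-12h. This difference of 3.14 ± 0.60 (SE, edgeR adjusted p = 0.00695) was not matched at clock hour 0, where the values overlapped (-0.15 ± 0.51). Nr1d1 was also the only clock gene called for its mean over all hours, at 0.92 ± 0.22 (SE), whereas 3 clock genes were called higher for the mean without library 24B and 2 without all 3 libraries. Cry1 had 27, 17.2, 30.8 and 18 CPM in CR-day-2h, against 71.4, 69.3, 60.2 and 49.1 CPM in CR-day-12h (-1.43 ± 0.28). Nampt, the rate-limiting enzyme of NAD salvage, had 41.7, 55.1, 45.9 and 49.4 CPM in CR-day-2h, against 78.5, 80.4, 95.6 and 121 CPM in CR-day-12h (-0.97 ± 0.18). In each of these genes the groups did not overlap at clock hour 16. Without library 40B the adjusted p was 0.0594 for Nr1d1 and 0.0602 for Nampt, with log2 differences of 3.02 and -0.82, while Cry1 kept its call.

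**Figure D2:**
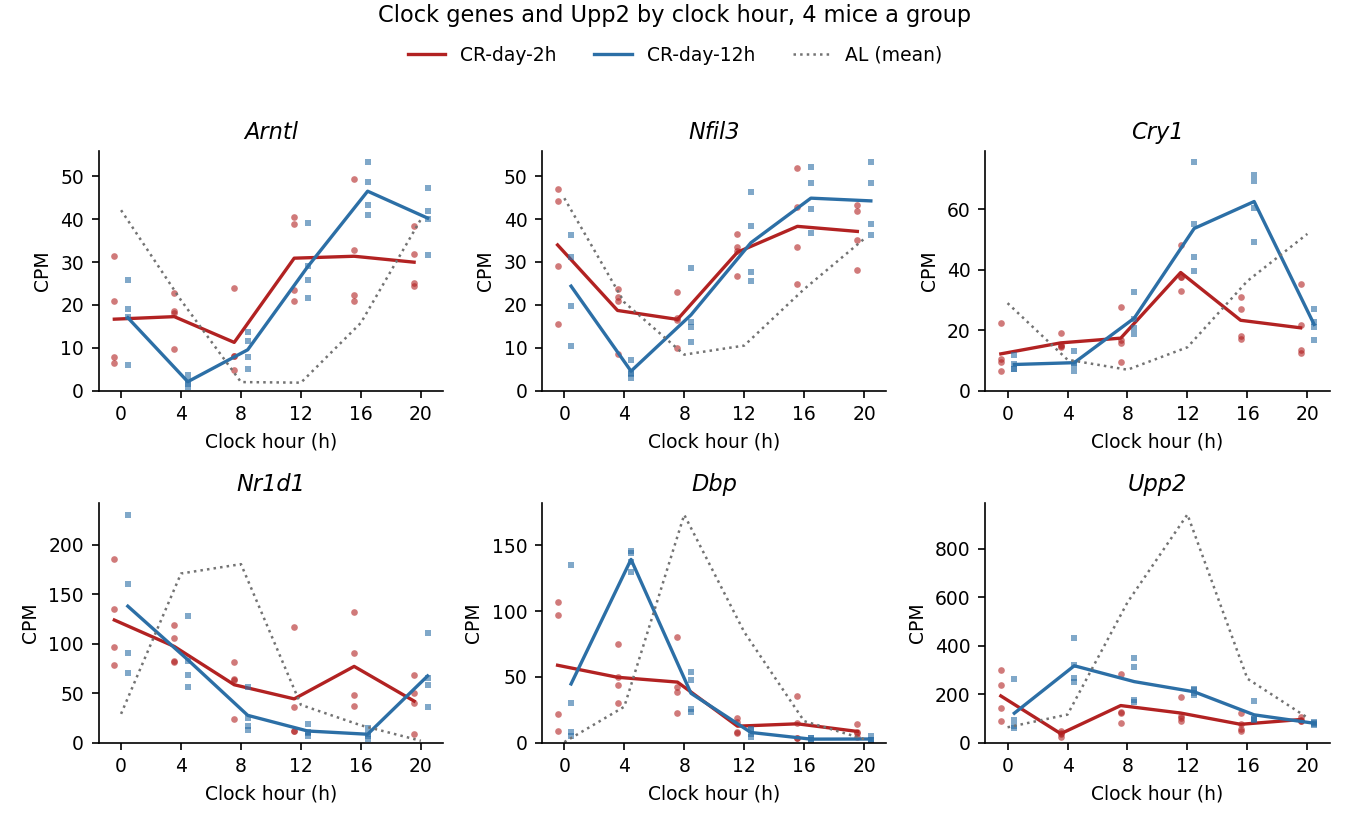
CPM of 5 clock genes and Upp2 against clock hour (h). Points are single mice (4 per group and hour), solid lines join the means of CR-day-2h and CR-day-12h, and the dotted line joins the AL means. At clock hour 4 Arntl and Nfil3 are higher in CR-day-2h and Upp2 is lower, and at clock hour 16 Cry1 is lower and Nr1d1 higher.

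Rhythms were fitted with a 24-h cosine, and amplitude means the fitted distance from the mean to the peak in log2 CPM. Amplitude was smaller in CR-day-2h for 28 of the 29 clock genes, against 54.0% of all genes tested. The paper cautions that daytime feeding and 2-h feeding bouts make daily profiles less sinusoidal, which lowers the number of genes called cycling. The amplitudes and rhythm calls here are those of a fitted cosine. The part of profile shape in them was not tested. Arntl had an amplitude of 0.65 ± 0.19 in CR-day-2h and 1.74 ± 0.20 in CR-day-12h (SE). Dbp had 1.32 ± 0.28 and 2.96 ± 0.33, Npas2 had 0.66 ± 0.35 and 2.84 ± 0.47, Cry1 had 0.68 ± 0.13 and 1.56 ± 0.13, and Nr1d1 had 0.52 ± 0.23 and 2.00 ± 0.25 in the same order of groups. Per2, which responds to systemic cues as well as to the liver clock, kept the largest amplitude of the list in CR-day-2h, at 1.44 ± 0.18 there and 1.88 ± 0.18 in CR-day-12h. Without the 3 libraries the count was again 28 of 29.

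With an adjusted p under 0.05 and a peak-to-trough distance of at least 0.3, 16 clock genes were rhythmic in CR-day-2h and 28 in CR-day-12h, and all 16 were among the 28. Over all genes, 4043 (34.9%) were rhythmic in CR-day-2h and 4628 (40%) in CR-day-12h, and the 2690 shared ones made up 66.5% of the CR-day-2h set and 58.1% of the CR-day-12h set. Those counts do not test a difference. The test of the difference in rhythm itself was passed by 25 genes (0.216%), with 1000 at an unadjusted p under 0.05, and it was passed by 55 genes without library 20A. Cry1 was the only clock gene among the 25 (edgeR adjusted p = 0.0337). In simulated counts the test recovered 62 of 100 genes given a 2-fold peak-to-trough rhythm in CR-day-2h alone.

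Peak times were close for the clock genes rhythmic in both groups. Among these 16 genes, 14 peaked within 2 h of each other, with a median distance of 0.68 h. Over all 29 clock genes, including those not rhythmic in CR-day-2h, the median distance was 1.23 h. For all 11570 genes, rhythmic or not, it was 1.98 h. Per2 peaked at 8.70 h in CR-day-2h and 9.58 h in CR-day-12h, and Dbp at 3.85 h and 4.22 h. Over the 2690 genes rhythmic in both groups, the phase difference had a median of -0.20 h (quartiles -1.21 and 0.86 h). Close peak times were thus not confined to clock genes, and the share of the 2690 genes within 2 h was not counted.

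**Figure D3:**
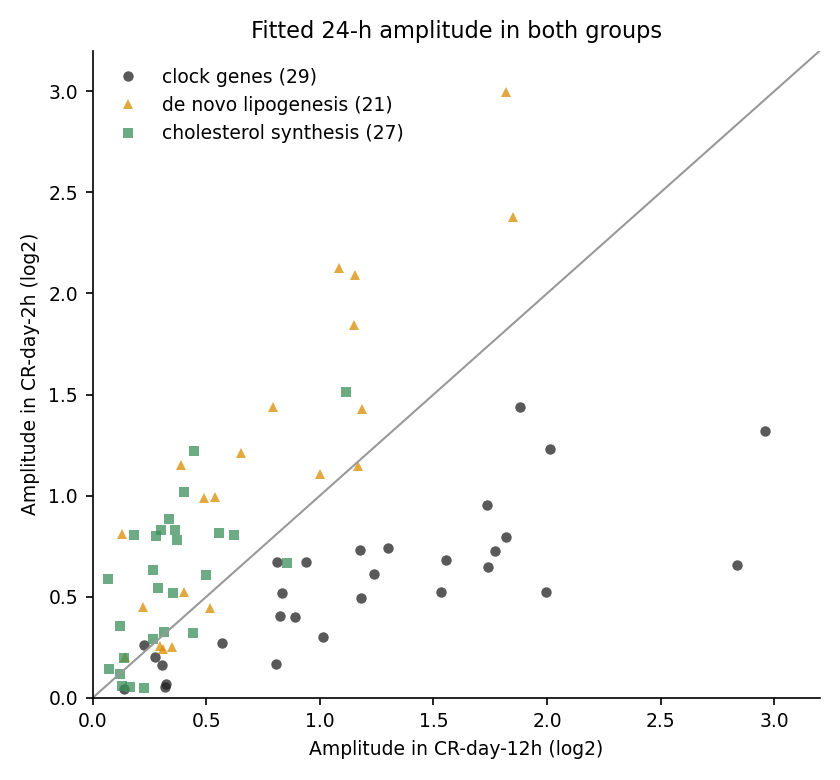
Fitted 24-h amplitude (log2) in CR-day-2h on the vertical axis and in CR-day-12h on the horizontal axis, 1 point per gene, with the line of equal amplitude. Of the 29 clock genes 28 lie below the line, while 16 of 21 lipogenesis genes and 21 of 27 cholesterol synthesis genes lie above it.

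A smaller amplitude of a group mean can go with a wider spread between mice. The median SD between mice of the same clock hour over the 29 clock genes was 0.51 in CR-day-2h and 0.47 in CR-day-12h on the log2 scale, and over all genes it was 0.28 and 0.25. Without the 3 libraries these clock values were 0.52 and 0.39, and 21 of 29 genes varied more in CR-day-2h, as did 7166 of all 11570 genes. The part of this spread in the amplitudes was not tested.

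Chaperone genes were called in 1 direction at clock hour 4. Of 17 heat-shock genes tested, 7 were higher in CR-day-2h and 0 lower (all genes 1.99% and 1.64%), the list's median log2 difference was 0.54 against -0.01 over all genes, and 7 had a different daily profile (all genes 1.12%). Hspb1 (chr5, 135887919 to 135889563 in GENCODE M21), a small chaperone, had 25.9, 17.3, 16 and 29.7 CPM in CR-day-2h, against 4.46, 4.74, 4.15 and 7.48 CPM in CR-day-12h. The difference was 2.07 ± 0.33 (SE, edgeR adjusted p = 0.000142). Hsp90aa1, the inducible HSP90, had 222, 272, 228 and 244 CPM in CR-day-2h, against 63.1, 104, 61.2 and 113 CPM in CR-day-12h (1.5 ± 0.24). Hsp90ab1, its constitutive counterpart, had 1377, 1407, 1377 and 1409 CPM in CR-day-2h, against 843, 945, 815 and 943 CPM in CR-day-12h (0.65 ± 0.14). Stip1, which links HSP70 to HSP90, had 136, 137, 142 and 147 CPM in CR-day-2h, against 52.0, 86.0, 73.9 and 87.0 CPM in CR-day-12h (0.91 ± 0.16). In all 4 genes every CR-day-2h mouse was above every CR-day-12h mouse.

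The remaining members called at clock hour 4 were Hspa1b (log2 difference 1.90), Hsph1 (1.16) and Hspa8 (0.75). Hspa8, the constitutive HSP70, crossed over within 4 h. It had 1078, 1152, 1181 and 931 CPM in CR-day-2h at clock hour 4, against 513, 820, 645 and 604 CPM in CR-day-12h. At clock hour 8 it had 269, 207, 210 and 226 CPM in CR-day-2h, against 461, 519, 434 and 448 CPM in CR-day-12h (-1.03 ± 0.19, SE, edgeR adjusted p = 0.00585). Hspb1 was still higher at clock hour 8, with 20.1, 14.4, 16.4 and 16.5 CPM in CR-day-2h, against 5.34, 7.23, 1.98 and 3.16 CPM in CR-day-12h (1.93 ± 0.34). The HSP40 gene Dnaja1 was lower at clock hours 8 (-0.69) and 12 (-0.72). Hspe1, a mitochondrial chaperonin that shares the promoter motif, had 61.0, 55.1, 58.3 and 70.7 CPM in CR-day-2h at clock hour 4, against 66.8, 74.6, 70.1 and 68.0 CPM in CR-day-12h, and was not called.

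In CR-day-12h and AL mice Hsp90aa1, Hsp90ab1 and Stip1 had their highest mean at clock hour 16, and in CR-day-2h they had it at clock hour 4. The 17 listed heat-shock genes were more divided. In CR-day-2h 9 had their highest mean at clock hour 4 and 5 at clock hour 12. In CR-day-12h 0 had it at clock hour 4, 8 at clock hour 12 and 7 at clock hour 16. Of all 11570 genes, 1579 in CR-day-2h and 1675 in CR-day-12h had it at clock hour 4. Hsp90aa1 averaged 262 CPM in AL mice at clock hour 16. It was at 157, 122, 188 and 140 CPM in CR-day-2h and at 245, 217, 206 and 222 CPM in CR-day-12h, values that did not overlap but missed the threshold (-0.55, edgeR adjusted p = 0.323). Hspa4l, an HSP110 family gene outside the list, had 48.7, 61.8, 57.2 and 54.0 CPM in CR-day-2h at clock hour 4, against 20.6, 24.4, 19.9 and 29.1 CPM in CR-day-12h (1.23 ± 0.21). Hspb1, Hsp90ab1 and Hspa4l were among the 25 genes with a different rhythm. Hspb1 peaked at 4.19 h in CR-day-2h and 16.96 h in CR-day-12h, and Hsp90ab1 at 5.56 h and 17.05 h. Leaving out the 3 libraries left the number of heat-shock genes called at clock hour 4 at 7.

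**Figure D4:**
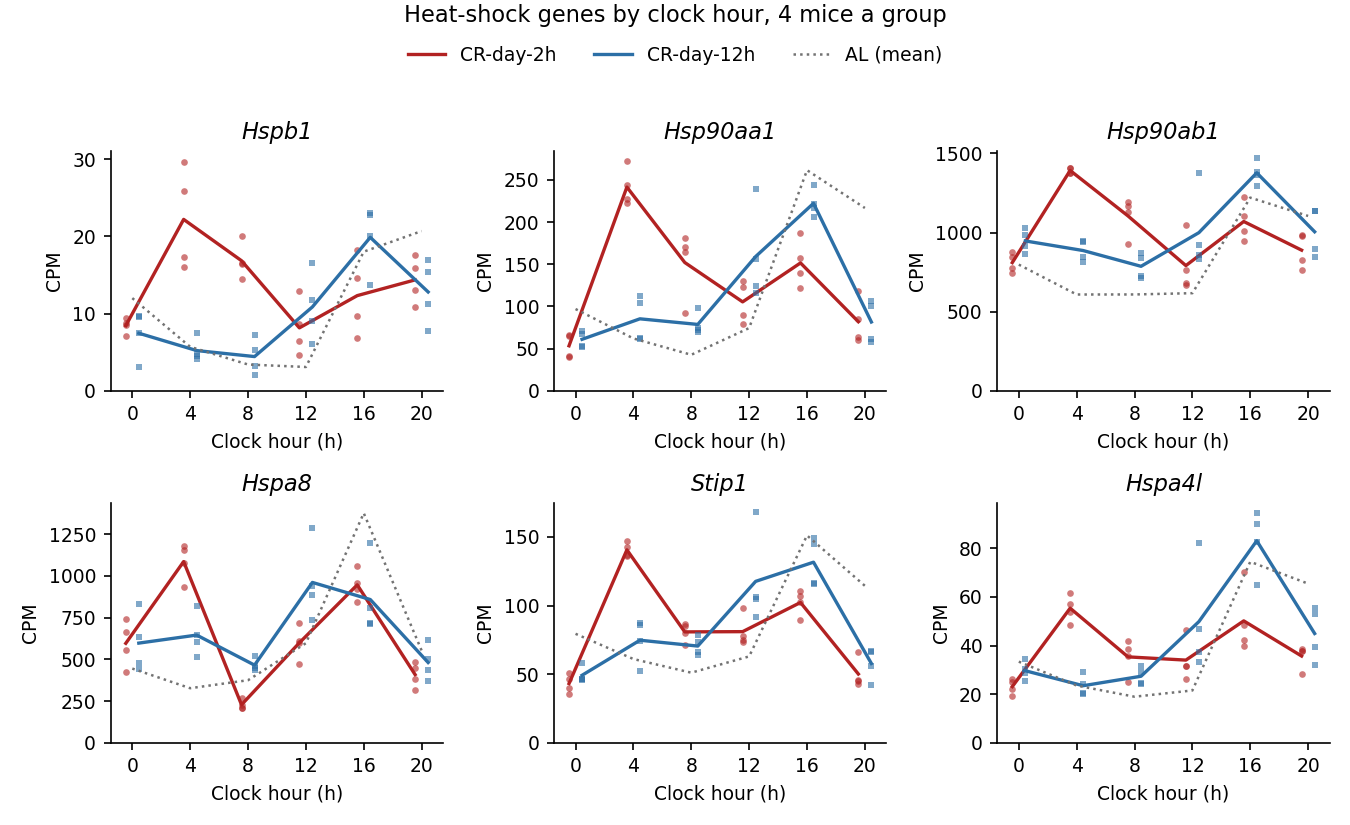
CPM of 6 chaperone genes against clock hour (h). Points are single mice, solid lines join the means of CR-day-2h and CR-day-12h, and the dotted line joins the AL means. Each of the 6 genes is higher in CR-day-2h at clock hour 4, and Hspa8 is lower at clock hour 8.

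Chaperones of the endoplasmic reticulum moved at the same hour in part. Of 21 genes of that list, 3 were higher at clock hour 4 (Sdf2l1, Creld2 and Hyou1) and 0 lower (all genes 1.99% and 1.64%), with a list median of 0.09. Creld2 had 45.8, 76.4, 58.1 and 35.3 CPM in CR-day-2h, against 14.3, 26.1, 14.7 and 24.0 CPM in CR-day-12h (1.43 ± 0.21). Sdf2l1, a cofactor of the chaperone BiP, had 15.9, 33.5, 29 and 17.8 CPM in CR-day-2h, against 1.41, 7.99, 4.98 and 9.18 CPM in CR-day-12h (1.98 ± 0.35).

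Some of the genes with the smallest p for a different profile were in neither the clock nor the chaperone list. Atp2b2, a plasma membrane calcium pump, had 66.2, 58.9, 56.5 and 43.7 CPM in CR-day-2h at clock hour 4, against 16.4, 6.23, 6.22 and 8.84 CPM in CR-day-12h (2.62 ± 0.33). It was also higher at clock hour 8 (2.31 ± 0.33) and over all hours (0.86 ± 0.14). Its profile test had an edgeR adjusted p of 2.11e-05. Upp2, the uridine phosphorylase of liver, had 25.7, 39.8, 47.0 and 38.3 CPM in CR-day-2h at clock hour 4, against 269, 251, 430 and 320 CPM in CR-day-12h (-3.08 ± 0.39). Chka, a choline kinase, had 85.9, 59.6, 81.7 and 55.6 CPM in CR-day-2h, against 18.8, 14.9, 16 and 20.1 CPM in CR-day-12h (2.02 ± 0.29). Slc41a2, a magnesium transporter gene, had 70.0, 55.0, 55.2 and 55.8 CPM in CR-day-2h, against 20.6, 20.9, 17.2 and 15.6 CPM in CR-day-12h (1.67 ± 0.24). No values overlapped between groups in these 4 genes at clock hour 4. Fbxo21, an F-box ubiquitin ligase gene, differed at clock hour 16, with 73.9, 82.2, 85.3 and 78.0 CPM in CR-day-2h, against 37.3, 32.7, 50.3 and 29.1 CPM in CR-day-12h (1.10 ± 0.19).

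Genes of growth signalling and of liver metabolism were also called at clock hour 4. Igf1, the growth factor that liver secretes under growth hormone, had 228, 310, 257 and 246 CPM in CR-day-2h, against 490, 461, 580 and 518 CPM in CR-day-12h (-0.98 ± 0.16). Igfbp1, an IGF-binding protein gene that insulin represses, had 24.7, 40.5, 28.4 and 21.9 CPM in CR-day-2h, against 4.46, 14.1, 5.81 and 3.23 CPM in CR-day-12h (2.01 ± 0.63). Igf1 and Igfbp1 were thus called in opposite directions, and neither pair of ranges overlapped. Of 16 genes of the growth hormone and IGF list, 1 was called higher and 1 lower at clock hour 4, with a list median of 0.02. Of 19 genes of the insulin, FOXO and mTOR list, 1 was called higher and 0 lower, with a median of -0.08. Over all genes 1.99% were called higher and 1.64% lower.

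Among 35 genes of amino acid breakdown, 4 were lower and 0 higher at clock hour 4 (all genes 1.64% and 1.99%), 29 of 35 had a negative difference, and the list median was -0.32. Sds, serine dehydratase, had 50.7, 40.3, 50.5 and 36.7 CPM in CR-day-2h, against 99.0, 91.0, 113 and 109 CPM in CR-day-12h (-1.21 ± 0.31). Tdo2 (-0.64) and Oat (-0.84), which break down tryptophan and ornithine, were also among the 4.

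Of 26 bile acid genes, 4 were lower and 0 higher at clock hour 4 (all genes 1.64% and 1.99%), and the list median was -0.17. Slc10a1, the bile acid uptake carrier NTCP, had 731, 833, 821 and 612 CPM in CR-day-2h, against 1449, 1204, 1585 and 1188 CPM in CR-day-12h (-0.86 ± 0.25). Abcg5 (-0.82) and Abcg8 (-0.81), which pump sterols into bile, and the uptake carrier gene Slco1a4 (-1.03) were the rest. Of 13 glycogen genes 2 were lower (all genes 1.64%), including glycogen synthase Gys2, with 102, 121, 103 and 119 CPM in CR-day-2h, against 182, 233, 283 and 176 CPM in CR-day-12h (-0.98 ± 0.20). The nucleolar genes Ncl (-0.70 ± 0.11) and Npm1 (-0.83 ± 0.14), which act in ribosome assembly, were lower as well, while 17 of the 25 genes of the ribosome biogenesis list were positive (median 0.12) and 0 were called higher. Cyp2a5, a cytochrome under clock-output control in mouse liver, had 216, 319, 243 and 357 CPM in CR-day-2h, against 792, 864, 1270 and 852 CPM in CR-day-12h (-1.74 ± 0.36).

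The second question was whether the groups differed in their mean over the day. By the same thresholds 61 genes were higher in CR-day-2h (0.527%) and 40 were lower (0.346%). Without the fold threshold 1089 were higher and 1400 lower (21.5% together), with a median absolute log2 difference of 0.25, so most of the differences were small. Of the 61 genes, 61 were higher among A mice and 60 among B mice (medians 0.90 and 0.57). Of the 40, 40 were lower among A mice and 39 among B mice (medians -0.97 and -0.78). These genes too were called on both letters together, so the counts are a description and no independent support. A mice alone gave 216 higher and 135 lower calls, and B mice alone gave 0 and 0 with edgeR, with 1027 genes at an unadjusted p under 0.05. The difference between letters passed the test for 7 genes, 0 of them among the genes called over all hours. Hours 0 to 20 gave 119 higher and 77 lower calls and hours 24 to 44 gave 3 and 14. Leaving out library 40B gave 102 higher calls.

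Some fat oxidation genes were higher over the day. Of 30 targets of the fasting receptor PPARα that were tested, 5 were called higher and 0 lower (all genes 0.527% and 0.346%), and 15 were higher and 1 lower by adjusted p alone (all genes 21.5% in either direction). The list median was 0.14, and without the 3 libraries 4 were called higher. Cyp4a10, a fatty acid ω-hydroxylase, averaged 1089 ± 318 CPM in CR-day-2h and 643 ± 256 CPM in CR-day-12h (SD, n = 24 each), against 103 CPM in AL mice. Its log2 difference was 0.77 ± 0.14 (SE, edgeR adjusted p = 0.000198). Slc27a1, a fatty acid transport protein, averaged 12.9 ± 5.74 CPM in CR-day-2h and 7.79 ± 3.85 CPM in CR-day-12h (0.74 ± 0.15). Acot2, a mitochondrial acyl-CoA thioesterase, averaged 14.7 ± 13.9 CPM in CR-day-2h and 7.82 ± 4.55 CPM in CR-day-12h (0.81 ± 0.20, and 0.62 without library 20A). Acot1 (0.74) and Cyp4a31 (0.59) were the other members called. Retsat, a retinol saturase gene outside that count, averaged 851 ± 277 CPM in CR-day-2h and 485 ± 149 CPM in CR-day-12h (0.80).

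Ehhadh, the peroxisomal bifunctional enzyme of fat oxidation, was higher at clock hour 4, with 707, 445, 668 and 765 CPM in CR-day-2h, against 348, 306, 226 and 345 CPM in CR-day-12h (1.08 ± 0.29). At clock hour 20 it had 1816, 737, 744 and 536 CPM in CR-day-2h, against 261, 366, 528 and 280 CPM in CR-day-12h (1.42 ± 0.29, SE, edgeR adjusted p = 0.0298). The highest value was that of library 20A, and without 20A the adjusted p was 0.334. Plin5, which coats lipid droplets in oxidative tissues, had 60.4, 75.3, 48.6 and 53.3 CPM in CR-day-2h at clock hour 20, against 25.6, 30.1, 31.2 and 21.6 CPM in CR-day-12h (1.13 ± 0.24). The Plin5 difference was as large without 20A (1.12), but its adjusted p was 0.155.

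Most genes of lipid synthesis had a negative difference at clock hour 20, although few passed the test. Of 21 de novo lipogenesis genes, 19 had a negative difference at clock hour 20, with a list median of -0.72 against -0.01 over all genes, and 0 were called higher and 1 lower there. Of 27 cholesterol synthesis genes 26 were negative at that hour (median -0.59), and 0 were called. Without library 20A these became 20 of 21 (-0.50) and 25 of 27 (-0.58). Elovl5, an elongase of polyunsaturated fatty acids, had 502, 944, 783 and 830 CPM in CR-day-2h at clock hour 20, against 1818, 2021, 1062 and 1669 CPM in CR-day-12h. The difference of -1.10 ± 0.24 had an edgeR adjusted p of 0.0405. Without 20A it was -0.95 with an adjusted p of 0.324, a setting at which edgeR called 0 genes higher and 0 lower at clock hour 20.

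At clock hour 0 the lipid lists depended on 1 library. Their medians were -0.89 for lipogenesis (19 of 21 negative) and -0.80 for cholesterol synthesis (25 of 27 negative), but without library 24B they were -0.17 (12 negative) and 0.06 (11 negative). G6pdx, which supplies NADPH for fat synthesis, shows this: it had 9.37, 9.92, 4.99 and 5.92 CPM in CR-day-2h, against 18.6, 21.0, 14.1 and 103 CPM in CR-day-12h, of which the last is 24B. All CR-day-2h values were the lower ones. The difference at this hour was -2.37 ± 0.49 with 24B, and -1.23 (edgeR adjusted p = 0.173) without it. Over all hours G6pdx was called at -0.80 ± 0.19 with all libraries and at -0.63 without the 3 libraries. The lists held 2 genes each that were called lower over all hours, among them G6pdx and Pnpla3 for lipogenesis and Idi1 (-0.59) for cholesterol synthesis, and 0 called higher (all genes 0.346% and 0.527%). Without library 24B the value of Idi1 was -0.41, under the fold threshold. Pnpla3, a lipase gene under SREBP control, was called over all hours at -1.12 ± 0.31 and missed the threshold without 24B (-0.67, edgeR adjusted p = 0.0653).

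Fitted amplitude was larger in CR-day-2h for 16 of 21 lipogenesis genes (medians 1.11 in CR-day-2h and 0.54 in CR-day-12h) and for 21 of 27 cholesterol genes (0.61 and 0.30). Without the 3 libraries the counts were 16 of 21 (1.09 and 0.82) and 20 of 27 (0.62 and 0.38). Over all genes the amplitude was smaller in CR-day-2h for 54.0%. In CR-day-2h 18 of 21 lipogenesis genes and 18 of 27 cholesterol genes were rhythmic, against 15 and 5 in CR-day-12h (all genes 34.9% and 40%), and 0 of either list passed the edgeR test of a different rhythm (11 and 8 at an unadjusted p under 0.05). Pnpla3 had an amplitude of 3.00 in CR-day-2h and 1.82 in CR-day-12h, and Elovl6, the elongase that makes stearate, 2.13 and 1.08.

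**Figure D5:**
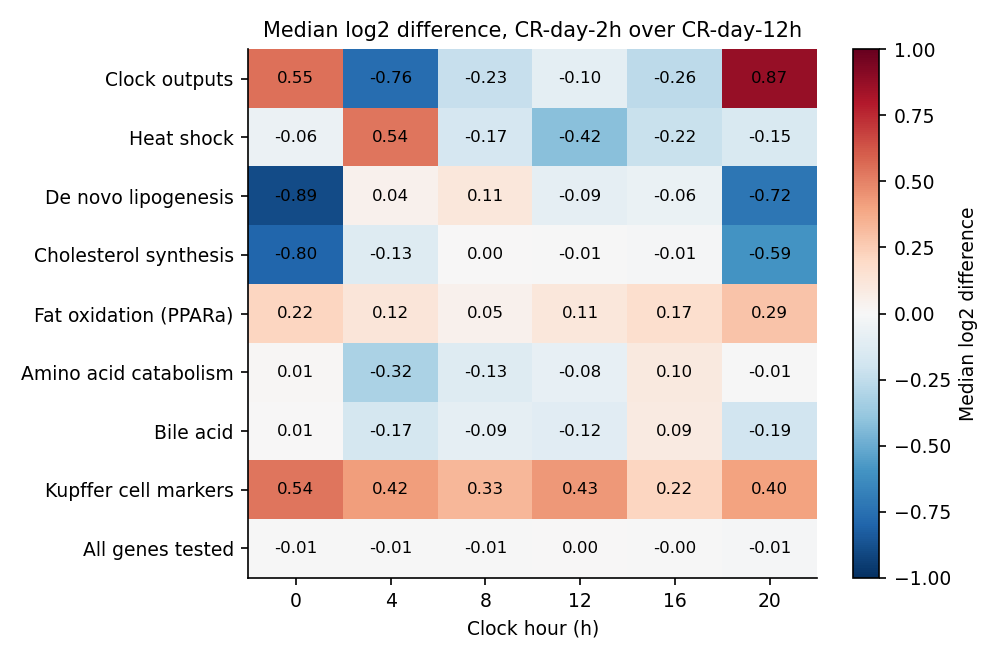
Median log2 difference of CR-day-2h over CR-day-12h for 8 gene lists and all genes (rows) at each clock hour in h (columns), red where higher and blue where lower. Heat-shock genes are at 0.54 at clock hour 4, and lipid synthesis lists are at -0.72 and -0.59 at clock hour 20, while their clock hour 0 values rest on 1 CR-day-12h library.

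Single genes with the largest mean differences came from several functions. Slc34a2, a sodium and phosphate cotransporter, averaged 2.87 ± 3.17 CPM in CR-day-2h and 0.609 ± 0.421 CPM in CR-day-12h (SD, n = 24 each), a log2 difference of 1.97 ± 0.36 (SE, edgeR adjusted p = 0.000187). It was called at clock hours 4 (4.41 ± 0.87) and 8 (3.8 ± 0.76). At clock hour 4 Slc34a2 had 10.1, 4.28, 5.2 and 1.08 CPM in CR-day-2h, against 0.938, 0, 0 and 0.17 CPM in CR-day-12h. Orm2, an acute-phase glycoprotein gene, averaged 17.1 ± 8.80 CPM in CR-day-2h and 8.27 ± 3.26 CPM in CR-day-12h (1.06 ± 0.18). Among 22 acute-phase genes Orm2 was the only one called, and the list median was -0.03.

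Rdh16f1 and Rdh9, retinol dehydrogenase genes with overlapping annotation on chromosome 10, were lower at -0.93 ± 0.10 and -0.89 ± 0.10 (SE, edgeR adjusted p = 1.53e-07 for each). Rdh16f1 averaged 50.7 ± 16.6 CPM in CR-day-2h and 97.9 ± 36.4 CPM in CR-day-12h, against 57.0 CPM in AL mice. Reads may be shared between such near copies and overlapping genes, so the single members are uncertain. Sult2a7, a sulfotransferase gene, averaged 4.38 ± 2.91 CPM in CR-day-2h and 15 ± 12.7 CPM in CR-day-12h (-1.64 ± 0.26). At clock hour 4 Sult2a7 had 1.86, 2.68, 3.03 and 0.809 CPM in CR-day-2h, against 16.9, 26.6, 61.4 and 16.5 CPM in CR-day-12h. Slc2a4, which encodes the insulin-regulated glucose transporter GLUT4, averaged 5.28 ± 5.11 CPM in CR-day-2h and 9.20 ± 7.37 CPM in CR-day-12h (-1.0 ± 0.24). Fst, the activin-binding protein follistatin, averaged 5.00 ± 3.68 CPM in CR-day-2h and 9.32 ± 5.32 CPM in CR-day-12h (-0.98 ± 0.19). Cyp17a1, a steroid hydroxylase, averaged 126 ± 66.4 CPM in CR-day-2h and 222 ± 131 CPM in CR-day-12h (-0.76 ± 0.21).

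Of 20 genes with male-biased expression in liver, 4 were lower in CR-day-2h and 0 higher (all genes 0.346% and 0.527%), and the list median was -0.51. The hours differed in sign, and no member passed both edgeR thresholds at any of them. The list median was 1.10 at clock hour 0 (18 of 20 positive), -0.05 at hour 4, -1.78 at hour 8 (17 negative), -0.20 at hour 12, 0.15 at hour 16 (-0.11 without library 40B) and -1.95 at hour 20 (19 negative). All 4 genes called for the mean were major urinary proteins, carriers of pheromones: Mup7 (-2.30), Mup17 (-2.05), Mup16 (-1.94) and Mup12 (-1.63). Both restricted groups were far below AL mice, since Mup16 averaged 1.57 ± 1.47 CPM in CR-day-2h, 4.89 ± 3.32 CPM in CR-day-12h and 65.0 CPM in AL mice. These genes belong to a family of near-identical copies among which the counting could split reads, so the single members are uncertain. Mup7 and Mup17 missed the threshold in a model with 1 mean per sampling hour (edgeR adjusted p = 0.0837 and 0.0514). The Mup7 difference was -4.56 among A mice and -0.07 among B mice, so it rests on the A mice.

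Some markers of other cells differed between the groups. Of 14 Kupffer cell and macrophage markers, 0 passed both thresholds, 6 were higher and 0 lower by adjusted p alone (all genes 21.5% in either direction), and the list median was 0.37. Their summed level was 144 to 524 CPM in CR-day-2h (median 244) and 150 to 385 CPM in CR-day-12h (median 179). Csf1r, the receptor of macrophage colony-stimulating factor, averaged 23.6 ± 8.27 CPM in CR-day-2h and 16.2 ± 6.41 CPM in CR-day-12h (0.56 ± 0.13). The haemoglobin gene Hba-a1 averaged 26.0 ± 14.5 CPM in CR-day-2h and 16.5 ± 7.32 CPM in CR-day-12h (0.60 ± 0.15). It was the only one called of 5 blood cell markers tested, whose list median was 0.24 over all hours and -0.37 at clock hour 20, where all 5 were negative. Csf3r, the neutrophil marker tested, was higher at 0.70. Fewer cells of a type and less RNA per cell cannot be told apart in bulk liver. The part of these cells in the other results was not tested.

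The same contrast was available for night feeding at 6 months and for day feeding at 19 months. In night-fed mice 233 genes were higher and 83 lower with 2-h than with 12-h feeding (2.66% of 11876 tested). The 61 genes higher under day feeding had a median of 0.68 in day-fed and 0.22 in night-fed mice, and 47 were positive in night-fed mice. The difference between day and night feeding passed the test for 267 genes (2.25%), among them 14 of the 61 and 14 of the 40. Rdh9 was lower in day-fed mice (-0.89) and positive in night-fed mice (0.30), with a difference of -1.19 ± 0.16 (SE, edgeR adjusted p = 4.79e-07). Cyp4a10 differed in the other sense, with 0.77 in day-fed and 1.67 in night-fed mice (difference -0.90 ± 0.23). For the mean of Arntl the difference between day and night feeding was -0.24 ± 0.29 and missed the threshold (edgeR adjusted p = 0.581).

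At 19 months day feeding gave 3 higher and 1 lower genes with 2-h than with 12-h feeding (0.0325% of 12292 tested). The difference between ages passed the test for 80 genes (0.651%), among them 6 of the 61 and 16 of the 40. The 40 genes lower at 6 months had a median of -0.80 at 6 months and -0.01 at 19 months, and the 61 higher ones had 0.68 and 0.15. Rdh16f1 was at -0.68 for the 6-month minus the 19-month difference (edgeR adjusted p = 0.0144), while Cyp4a10 was not distinguished between ages (difference 0.53 ± 0.26, edgeR adjusted p = 0.196). Since the day-fed 6-month groups enter both comparisons and chose these genes, the medians are a description and no independent support.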

How the data were processed

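Bulk liver mRNA was sequenced from TruSeq libraries of Trizol-extracted RNA. Per the labels, the authors used FastQC, cutadapt, STAR and featureCounts (versions not given in the sources used here, nor the genome build) and deposited raw read counts per gene. The deposited RPKM values and the tables of other groups were not used.

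Counts were analysed with edgeR 4.0.16 in R 4.3.3. TMM normalization ran over 72 libraries (both CR groups and AL), genes with low counts were dropped with filterByExpr, and 12 means (2 feeding groups by 6 clock hours) were fitted to 48 libraries by quasi-likelihood. A call required a Benjamini-Hochberg adjusted p under 0.05 and a change of at least 1.5-fold. Rhythms were fitted as a cosine of period 24 h (adjusted p under 0.05 and a peak-to-trough distance of at least 0.3), and the difference in rhythm was a test of both cosine terms. Interactions with night feeding and age used 96 libraries each. CPM are TMM-scaled. Plots were drawn in matplotlib 3.10.9. Tests of the mean, clock hour 4, the profile, rhythm and the night interaction were run on simulated counts. The mean over all hours recovered 100 of 100 genes changed 2-fold, with 0 false calls. Rhythm in CR-day-2h recovered 187 of 200, with 17 false calls. Changes were placed only in genes with higher counts, and no simulated library stood apart. The age interaction and the other clock hours were not simulated.

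Of the tested gene IDs, 82.2% had the same versioned ID in GENCODE M21, from which gene coordinates were taken. Promoter sequences came from RefSeq, GRCm38.p6. The 4 mice at a clock hour come from 2 cycles and were treated as replicates. Nothing says that replicate letters mark a shared batch, and same-label libraries did not deviate together (24 pairs, r between -0.25 and 0.18, 5 over 0.1), so no block was used.

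Genes were named by rule: the 12 largest calls in each direction for the mean with the same direction in both replicates and both cycles, the 12 smallest p for the profile, 3 per clock hour and direction, all clock genes, and the 4 smallest p of each of 49 lists. Genes outside it (Hspa1b, Hsph1, Hyou1, Abcg8, Retsat, and members completing a count) were named after their values were seen. The members and lists were chosen with earlier results of these data known. Alternatives were other normalizations and filters, DESeq2 1.42.0, other models of time, a replicate block and leaving out replicates, cycles or libraries. Some genes that entered the fits and counts are not reported here by name.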

Additional observations from a re-analysis of the deposited data

Results flagged for a closer look

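Of 68 groups of 4 mice tested for a mouse far from the others, 8 held one. For groups not selected, the test would flag about 5 percent. The genes tested here were those with the largest called differences at the same clock hour, so that rate does not apply. The flags are a description. In CR-day-12h at clock hour 0, 1 mouse had 102.6 CPM of G6pdx (next 21.0) and 1 had 5.697 CPM of Cdc14a (next 3.90). In CR-day-12h at clock hour 8, 1 mouse had 13.82 CPM of Atp2b2 (next 8.90) and 1 had 176 CPM of mt-Co3, for which the others were at 0. In CR-day-2h at clock hour 8, 1 mouse had 19.64 CPM of Dsg1c (next 7.08). In CR-day-2h at clock hour 20, 1 mouse had 14.34 CPM of Dusp8 (next 1.90), 36.48 CPM of Cidec (next 2.24) and 73.86 CPM of Acot2 (next 16.5). With library 20A left out, edgeR called 0 genes higher and 0 lower at clock hour 20.

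Some genes had a 2-h against 12-h difference that depended on the time of feeding (edgeR quasi-likelihood interaction, Benjamini-Hochberg adjusted p). The day minus night difference was -0.97 for Acot2 (adjusted p = 0.0498), -1.74 for E030018B13Rik (0.00986), -1.56 for Pnpla3 (0.0173), -1.24 for Rdh16f1 (4.24e-07) and -1.19 for Rdh9 (4.79e-07). Acot2 was positive under both feeding times, at 0.81 in day-fed and 1.79 in night-fed mice, while Pnpla3, Rdh16f1 and Rdh9 were positive in night-fed mice at 0.44, 0.32 and 0.30.

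Between ages, the 6-month minus 19-month difference under day feeding was 1.03 for Fam131c (edgeR adjusted p = 0.0256), -1.93 for Mup2 (0.0381), -0.68 for Rdh16f1 (0.0144) and -0.65 for Rdh9 (0.0167).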

How the results depend on the processing

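Counts moved with the mice that entered, the thresholds and the tool. Leaving out replicate A, replicate B or 1 library that stood apart gave 0 to 216 higher and 0 to 135 lower genes over all hours, 0 to 202 with a different profile, 1 to 598 called at some clock hour, 1 to 277 higher and 0 to 210 lower at clock hour 4, 764 to 4258 rhythmic genes in CR-day-2h, 985 to 4902 in CR-day-12h, 0 to 55 with a different rhythm, 11 to 561 with a night interaction and 9 to 113 with an age interaction. The lowest values came from B mice alone, where 1027 genes had an unadjusted p under 0.05 over all hours and 726 for the profile, and such fits hold fewer samples. Hours 0 to 20 alone gave 119 higher, 77 lower and 19 profile genes, and hours 24 to 44 gave 3, 14 and 0 with edgeR (700 profile genes at an unadjusted p under 0.05). Leaving out library 40B gave 102 higher genes. Leaving out the 3 libraries together, a choice made after seeing the data, gave 277 profile and 49 rhythm differences. A filter by 2 feeding groups gave 32 higher genes, DESeq2 gave 352 profile genes, and added terms of period 12 h gave 93 rhythm differences. Adjusted p alone gave 1089 higher, 1400 lower, 784 at some hour and 392 lower at clock hour 4. The cause of these shifts was not tested. No value of the single genes followed through these settings reversed. Those named for the mean had been chosen for the same direction in both replicates and both cycles. Among B mice alone 60 of the 61 genes called higher over all hours were higher. Of the 40 called lower, 39 were lower among B mice. At single clock hours the medians of 2 gene lists changed sign. Cholesterol synthesis at clock hour 0 was at -0.80, and at 0.06 without 24B. The male-biased list at clock hour 16 was at 0.15, and at -0.11 without 40B. For single genes named, 305 values over all hours, 44 at clock hour 4 and 132 profile values kept their call, and 69, 10 and 36 lost it.

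With the replicate letter as a replicate block the counts were 63 higher, 39 lower, 127 profile, 495 at some hour, 230 and 192 at clock hour 4, 4026 and 4609 rhythmic, 21 rhythm differences, and 264 and 80 interactions. The 24 same-label pairs as a replicate block gave 52 higher and 30 lower. Npas2 at clock hour 4 lost its call under the letter block (edgeR adjusted p = 0.0535).

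Depth of 3170660 to 8969840 counts a library limits genes near 1 CPM, such as Bhlhe41 and Slc34a2. Replicates are separate mice, 4 at a clock hour.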

Other observations

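Interferon response genes, which cells switch on in antiviral defence, had larger fitted amplitudes in CR-day-2h for most members. Of 23 tested, 15 were rhythmic in CR-day-2h and 7 in CR-day-12h (all genes 34.9% and 40%), and the median amplitude was 0.56 in CR-day-2h and 0.27 in CR-day-12h. At clock hour 8, 22 of the 23 differences were positive with a median of 0.65, but the smallest edgeR adjusted p among them was 0.071, for Isg15 (1.30), and no call was made. The test of a different rhythm was passed by 0 of the 23 with edgeR (7 at an unadjusted p under 0.05). Of 28 proteasome genes, 18 were rhythmic in CR-day-2h and 8 in CR-day-12h, with median amplitudes of 0.18 and 0.13, and 0 passed that edgeR test (10 at an unadjusted p under 0.05).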
